A study of Mus musculus with 10 samples.

Results

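Glucose handling in the mouse kidney was followed through 42 transcripts of glycolysis, gluconeogenesis, fructose and galactose entry, pyruvate entry into mitochondria and the tricarboxylic acid (TCA) cycle. They were chosen by symbol, and all 42 were found among the 13837 genes of the table of normalized counts. Of these members, 15 are glycolytic, 4 gluconeogenic, 2 act on fructose or galactose, 8 bring pyruvate into the cycle or regulate that step, and 13 belong to the TCA cycle. RNA was taken from whole kidneys of 3-month-old mice, 5 wild-type (labelled RagC S74N +/+) and 5 heterozygous knock-in (labelled RagC S74N KI/+), with 1 library per mouse. The KI/+ mice carry 1 Rragc allele that encodes the S74N variant of RagC, made by CRISPR editing in the germ line, so that the variant is under the endogenous promoter and present in every cell type. Both groups were otherwise untreated and ate standard chow, and the feeding state at sampling is not given in the labels. The comparison asks how kidney transcripts differ when the RagC GTPase signals nutrient sufficiency to mTORC1 from 1 allele.

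RagC is a lysosomal GTPase that relays amino acid and glucose sufficiency to the kinase complex mTORC1 and holds the transcription factor TFEB in the cytoplasm. In the kidney, the proximal tubule makes glucose from lactate, glutamine and glycerol, burns fatty acids, and metabolizes fructose. More distal segments, such as the thick ascending limb and the collecting duct, run glycolysis and take up glucose for fuel.

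The libraries held between 6501552 and 7856363 reads on genes in +/+ mice and between 6872310 and 7996087 in KI/+ mice (two-sided exact permutation test, p = 0.595). Reads of the mitochondrial genome took 27.7% ± 2.41 of reads (SD, n = 5) in +/+ and 25.2% ± 1.26 (SD, n = 5) in KI/+ kidneys (exact permutation test, p = 0.0952). Rragc itself was at 285 ± 42.3 normalized counts in +/+ and 216 ± 23.6 in KI/+ mice (log2 fold change -0.40, limma, adjusted p = 0.0678; 0.0312 with DESeq2 and 0.0487 with scaling to reads outside the mitochondrial genome), a level that does not check the allele. Library codes fell into a first run (2 +/+ mice and 1 KI/+ mouse) and a second run (3 +/+ and 4 KI/+ mice), and the first is too small for a test of its own. Mouse KI/+ 5 stood apart. It had the lowest summed level of 5 thick ascending limb markers (12615 normalized counts, against 20016 to 21685 in the other KI/+ mice) and the highest level of the adipocyte gene Cfd (3504). Mouse KI/+ 1 had the next highest Cfd (807), and the other 8 mice lay between 0 and 52.3. Of 5 adipocyte markers only 2, Cfd and Fabp4, are among the genes of the table, without Adipoq, Plin1 and Lep, and neither passed. Fabp4 was at 871 in KI/+ 5, at 604 in KI/+ 1 and between 94.6 and 217 in the other 8 mice. Markers of the labelled tissue were present, with sums over 9 markers of the first proximal tubule segments of 46749 to 50550 in +/+ and 48478 to 56898 in KI/+ mice, while 0 of 5 adrenal and 0 of 5 skeletal muscle markers are among the genes of the table.

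A normalized count is the number of reads that start near the 3′ end of a gene's transcripts, divided by a size factor of the library, so it does not scale with transcript length. Tests used limma on log2(normalized count + 1) over the 13197 genes that reached 10 normalized counts in 5 or more mice. P values were adjusted over all of them by the Benjamini-Hochberg method, and a gene passed when its adjusted p was under 0.05. A log2 fold change is given as KI/+ minus +/+, and in whole kidneys fewer cells of a type and less RNA per cell cannot be told apart.

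Of the 42 members, 40 were tested and 3 passed, against 3.69% of all genes tested. Of these, 1 rose (background 1.67%) and 2 fell (background 2.02%). Hexokinase 1 (Hk1) and mitochondrial isocitrate dehydrogenase 2 (Idh2) fell in KI/+ kidneys, and the glucose-6-phosphate transporter Slc37a4 rose. The other 37 tested members did not pass, and their log2 fold changes lay between -0.32 and 0.27. The median over the 40 members was -0.03, beside 0.00 over all genes tested, and 18 members lay above 0 and 22 below. At an unadjusted p under 0.05 there were 11 of the 40 members, 4 higher and 7 lower, beside 15.4% of all genes. The coefficient of variation between mice had a median of 10.6% in +/+ and 11.3% in KI/+ kidneys over the members, and among tested members it ran in +/+ kidneys from 1.83% (Idh3g) to 29.6% (G6pc). The SE of the log2 fold change ran from 0.077 (Suclg1) to 0.189 (Fh1), and the 95% interval of a log2 fold change reached a median of 0.20 to each side. For 34 of the 40 members the whole interval lay within 0.5 of 0 on the log2 scale.

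**Figure D1:**
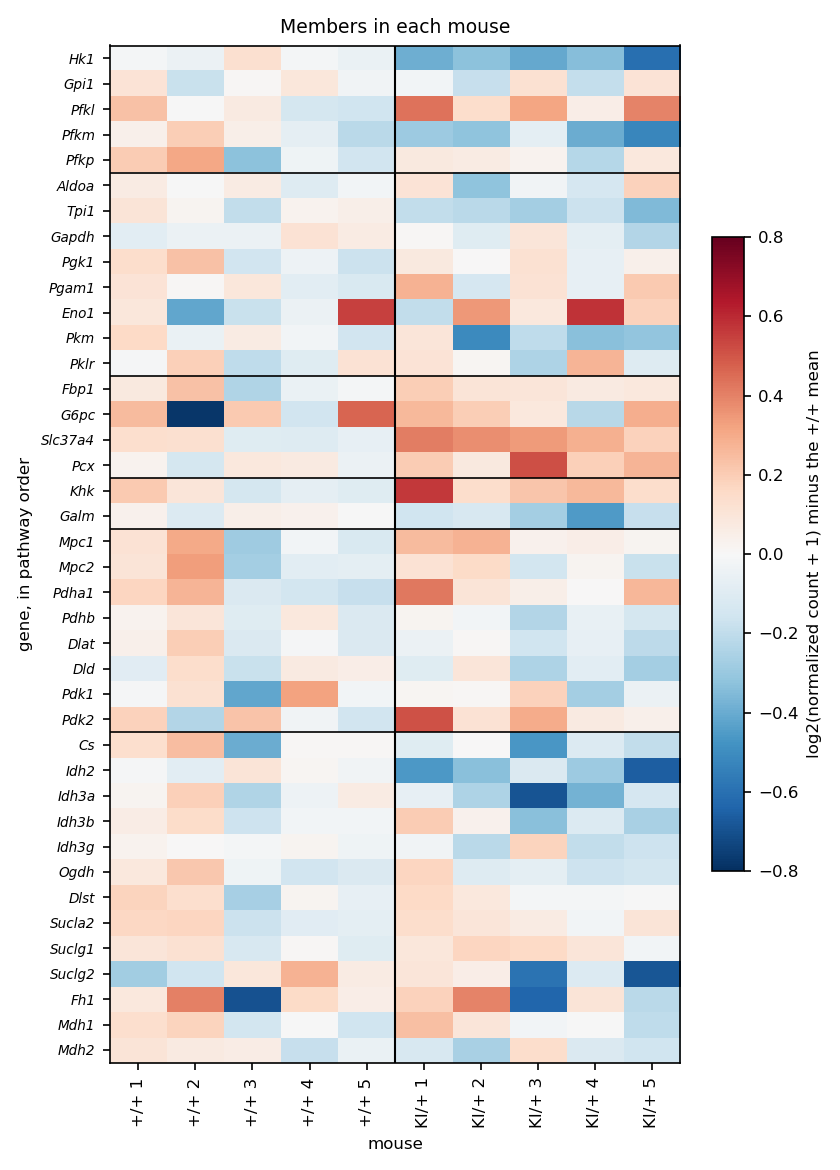
Each row is 1 of the 40 tested members in pathway order and each column 1 mouse; colour gives log2(normalized count + 1) minus the mean of the 5 +/+ mice for that gene, and lines separate the groups of the pathway. Hk1 and Idh2 are below the +/+ mean in all 5 KI/+ mice and Slc37a4 above it in all 5. Some members that did not pass show the same, such as Galm, Pfkm and Tpi1 below and Pfkl, Pcx and Khk above.

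Glycolysis begins with hexokinase, which traps glucose in the cell as glucose-6-phosphate. Hk1, the hexokinase that docks on mitochondria and is the common form outside the liver, was at 494, 482, 544, 493 and 480.5 normalized counts in the 5 +/+ mice and at 380.4, 397, 375, 392 and 328 in the 5 KI/+ mice. The lowest +/+ mouse lay above the highest KI/+ mouse. The mean was 499 ± 26.2 (SD, n = 5) in +/+ and 375 ± 27.5 (SD, n = 5) in KI/+ kidneys, so that the log2 fold change was -0.41 (SE 0.085, 95% interval -0.59 to -0.23, limma adjusted p = 0.00821). The two-sided exact permutation test gave an unadjusted p = 0.00794, the smallest that 5 against 5 mice allow. Every gene whose genotypes do not overlap has this value. Hk1 passed in each of the 23 other settings tried, with log2 fold changes between -0.46 and -0.37, and without mouse KI/+ 5 it was -0.37 (limma adjusted p = 0.0197). Hexokinase 2 (Hk2), the insulin-responsive form of muscle and fat, was too low to be tested. It was at 3.65 to 10.7 normalized counts in +/+ mice and at 21.8, 3.72, 14.7, 5.93 and 52.5 in KI/+ mice 1 to 5. The highest Hk2 values were in KI/+ 5 and KI/+ 1, the mice with the highest Cfd. The part of adipocyte RNA in them was not tested.

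The RefSeq annotation of GRCm38.p6 places a pair of starts of Hk1 on the minus strand of chromosome 10, and the 100 bases before each are given in the direction of the gene, because Hk1 was the member that passed under every setting. Expression was counted on another build, GRCm39. Capitals in these and the following 100-base sequences mark GGGCGG (GC box), TGACG (the core of a cAMP response element) and ACGTG (the core bound by hypoxia-inducible factor), on either strand.
Hk1 upstream start, chr10:62379909-62380008: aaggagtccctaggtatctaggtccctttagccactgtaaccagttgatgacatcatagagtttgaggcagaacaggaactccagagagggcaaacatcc
Hk1 downstream start, chr10:62340422-62340521: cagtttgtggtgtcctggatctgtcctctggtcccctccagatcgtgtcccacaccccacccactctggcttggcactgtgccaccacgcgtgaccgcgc
Neither stretch holds any of the 3 motifs, while the 300-base window around the downstream start, which extends past the stretch shown, holds 2 matches to ACGTG or its complement.

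Glucose-6-phosphate isomerase (Gpi1) was at 1411 ± 109 in +/+ and 1382 ± 145 in KI/+ kidneys (log2 fold change -0.03). Phosphofructokinase commits the sugar to glycolysis, and its subunits did not share a direction. The liver-type subunit Pfkl was at 296 ± 34.1 and 358 ± 40.4 normalized counts (log2 fold change 0.27, 95% interval 0.05 to 0.49, limma adjusted p = 0.205). The muscle-type subunit Pfkm was at 74.8 ± 7.94 and 59.7 ± 6.95 (log2 fold change -0.32, 95% interval -0.61 to -0.03, limma adjusted p = 0.266). The platelet-type subunit Pfkp was at 297 ± 53.3 and 295 ± 25.5, with a log2 fold change of 0.00 whose sign turned under other scalings and when single mice were left out. None of these subunits passed. Pfkfb2, which sets the level of fructose-2,6-bisphosphate, the activator of phosphofructokinase, was at 2.97 to 13.9 normalized counts over the 10 mice and was not tested.

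In the lower part of glycolysis, 0 of 8 members passed by limma, and the count at an unadjusted p under 0.05 was 2. Their median log2 fold change was -0.01, with a range from -0.25 to 0.20. Aldolase A (Aldoa, log2 fold change -0.04), glyceraldehyde-3-phosphate dehydrogenase (Gapdh, -0.06), phosphoglycerate kinase (Pgk1, 0.03) and phosphoglycerate mutase 1 (Pgam1, 0.08) each had a 95% interval that included 0. Triosephosphate isomerase (Tpi1), which interconverts the 3-carbon sugars, was at 899.7 ± 68.4 in +/+ and 760.1 ± 38.2 in KI/+ kidneys (log2 fold change -0.24, limma adjusted p = 0.126). Enolase 1 (Eno1) was the most variable of the 8, at 84.5 to 165 in +/+ and 98.6 to 169 in KI/+ mice. Its level is uncertain, because the near-identical copy Eno1b, not analysed here, could take reads from it. Reads of Aldoa, Tpi1, Gapdh, Pgk1 and Pgam1 could likewise be shared with copies, of which the GENCODE vM21 annotation names between 2 and 6 for each.

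Pyruvate kinase, the last step, is encoded by Pkm in most tissues and by Pklr in liver, proximal tubule and red cells. Pkm was at 1055 ± 88.04 in +/+ and 892 ± 146 in KI/+ kidneys (log2 fold change -0.25, 95% interval -0.47 to -0.04, limma adjusted p = 0.228). Pklr was at 82.9 ± 9.22 and 83.8 ± 11.6 (log2 fold change 0.01, limma adjusted p = 0.984). The ranges of both genes overlapped between genotypes.

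Gluconeogenesis was represented by 4 members, of which 1 passed, and all 4 had log2 fold changes above 0, with a median of 0.19. Over all 13197 genes tested, 6612 lay above 0. Of 8 other gluconeogenic genes, taken up below, 4 lay above 0 and 4 below, with a median of 0.08. Slc37a4, which carries glucose-6-phosphate into the endoplasmic reticulum where its phosphate is removed, was at 1262, 1257, 1074, 1068 and 1098 normalized counts in +/+ mice. In KI/+ mice it was at 1523, 1489, 1451, 1397 and 1305. Every KI/+ mouse lay above every +/+ mouse, although the gap between the highest +/+ and the lowest KI/+ mouse was narrow beside the spread within each genotype. The means were 1152 ± 99.1 (SD, n = 5) and 1433 ± 85.8 (SD, n = 5), so that the log2 fold change was 0.32 (SE 0.081, 95% interval 0.15 to 0.49, limma adjusted p = 0.0356, exact permutation p = 0.00794). Slc37a4 did not pass when any of +/+ 3, +/+ 4, +/+ 5, KI/+ 1, KI/+ 2, KI/+ 3 or KI/+ 4 was left out, with log2 fold changes of 0.29 to 0.33 and limma adjusted p of 0.0579 to 0.114. Without KI/+ 5 it was 0.35 (limma adjusted p = 0.0237), and within the second run of library codes 0.38 (limma adjusted p = 0.0276).

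The 100 bases before the first 2 of 3 annotated starts of Slc37a4, on the plus strand of chromosome 9 (GRCm38.p6), hold both the GC box and the core of a cAMP response element, an element known in genes of gluconeogenesis.
Slc37a4 first start, chr9:44396846-44396945: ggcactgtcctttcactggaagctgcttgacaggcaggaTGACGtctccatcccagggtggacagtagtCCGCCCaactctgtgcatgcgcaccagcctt
Slc37a4 second start, chr9:44396999-44397098: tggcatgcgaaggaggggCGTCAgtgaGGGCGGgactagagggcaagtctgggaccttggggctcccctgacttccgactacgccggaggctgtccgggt
TGACG or its complement CGTCA is also in 20.8% of all 32851 RefSeq windows of 300 bases around a start. Among the 63 windows of members the share is 34.9%. Such windows are longer than the 100 bases shown, and the presence of the motif is a description of these stretches and not a site.

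Glucose-6-phosphatase (G6pc), the partner of Slc37a4 in releasing free glucose, was the most variable gluconeogenic member, at 1774 to 4204 normalized counts in +/+ and 2607 to 3728 in KI/+ mice. Its log2 fold change was 0.12 (95% interval -0.24 to 0.49, limma adjusted p = 0.811). Mouse +/+ 2 had the lowest value, and without it the log2 fold change was -0.07. Fructose-1,6-bisphosphatase 1 (Fbp1) was at 3967 ± 475 in +/+ and 4259.7 ± 147 in KI/+ kidneys (log2 fold change 0.11, limma adjusted p = 0.613). Pyruvate carboxylase (Pcx), which makes oxaloacetate from pyruvate, was at 706 ± 45.1 and 843 ± 99.5 (log2 fold change 0.25, 95% interval 0.06 to 0.44, limma adjusted p = 0.158).

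Of the 2 members that act on other sugars, neither passed. Ketohexokinase (Khk), which phosphorylates fructose in the proximal tubule and liver, was at 2134 ± 224 in +/+ and 2570.4 ± 336 in KI/+ kidneys (log2 fold change 0.27, 95% interval 0.06 to 0.47, limma adjusted p = 0.161). With the run of library codes as a covariate it passed (log2 fold change 0.33, limma adjusted p = 0.00520). Galactose mutarotase (Galm), which converts the anomers of galactose and glucose, was at 278, 251.7, 280.1, 278 and 271 in +/+ mice and at 243, 248, 225, 198 and 238 in KI/+ mice. Its groups did not overlap, the closest values being 251.7 in +/+ 2 and 248 in KI/+ 2. The log2 fold change was -0.24 (95% interval -0.44 to -0.04, limma adjusted p = 0.208), and Galm passed in 0 of the 23 other settings. Its unadjusted exact permutation p = 0.00794 follows from the lack of overlap and adds nothing to it. Genotypes did not overlap in 4 of the 40 members, 3 of them lower in KI/+ mice (Hk1, Galm and Idh2, beside 2.71% of all genes tested) and 1 higher (Slc37a4, beside 2.29%).

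**Figure D2:**
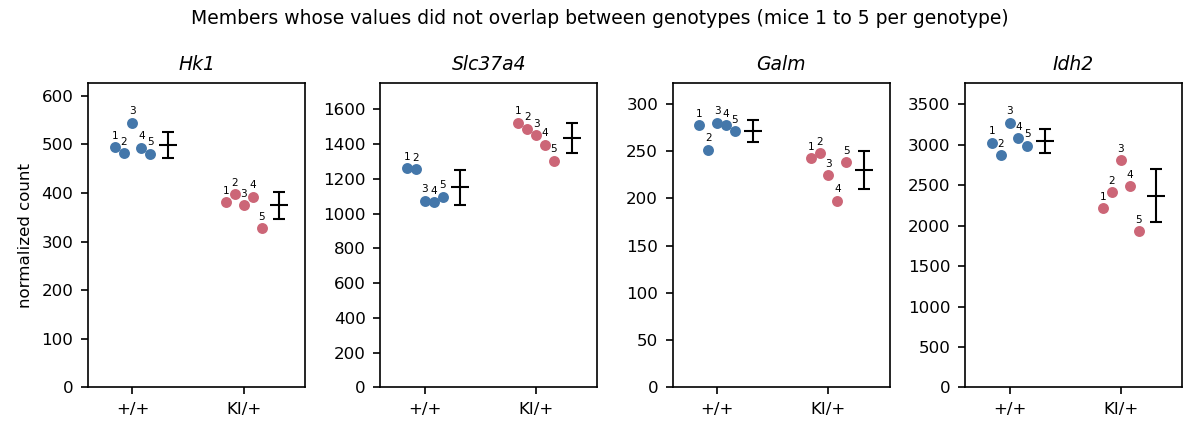
Points are normalized counts of single mice, numbered 1 to 5 within each genotype, for the 4 members whose genotypes did not overlap; the bars beside them give the mean and SD of 5 mice, and each axis starts at 0. Slc37a4 is higher in KI/+ mice and Hk1, Galm and Idh2 are lower, with the widest gap for Hk1 (480.5 in the lowest +/+ mouse against 397 in the highest KI/+ mouse).

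The 8 members of the pyruvate step gave 0 calls by limma, and 0 had an unadjusted p under 0.05. The carriers that bring pyruvate into mitochondria, Mpc1 and Mpc2, had log2 fold changes of 0.13 and -0.01. Reads of Mpc1 could be shared with the 1 copy that the GENCODE vM21 annotation names. In the pyruvate dehydrogenase complex, which makes acetyl-CoA, the catalytic subunit Pdha1 was at 2421 ± 358 in +/+ and 2715 ± 335 in KI/+ kidneys (log2 fold change 0.17, limma adjusted p = 0.496). Its partners Pdhb, Dlat and Dld were at -0.09, -0.09 and -0.12. With the library-code run as a covariate, Pdha1 passed at 0.24 (limma adjusted p = 0.0488). The kinases that switch the complex off were at 128 ± 23.1 and 124 ± 14.0 for Pdk1 (log2 fold change -0.02) and at 1192 ± 168 and 1376 ± 196 for Pdk2 (log2 fold change 0.21, 95% interval -0.02 to 0.44, limma adjusted p = 0.390).

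In the TCA cycle, 1 of 13 members passed. The median log2 fold change was -0.09, with 9 members below 0 and 4 above, beside 6585 below 0 among the 13197 genes tested. Idh2, the NADP-dependent isocitrate dehydrogenase of mitochondria, was at 3025, 2876, 3274, 3084 and 2991 normalized counts in +/+ mice. In KI/+ mice it was at 2215, 2417, 2813, 2489 and 1932. The closest values were 2876 in +/+ 2 and 2813 in KI/+ 3, and KI/+ 5 and KI/+ 1 were the lowest. The means were 3050.0 ± 146 (SD, n = 5) and 2373 ± 328 (SD, n = 5), so that the log2 fold change was -0.37 (SE 0.092, 95% interval -0.57 to -0.18, limma adjusted p = 0.0301, exact permutation p = 0.00794). Idh2 did not pass without +/+ 3, +/+ 4, +/+ 5, KI/+ 1 or KI/+ 5, with log2 fold changes of -0.38 to -0.30 and limma adjusted p of 0.0615 to 0.0788. Without KI/+ 5 the value was -0.30, and within the second run of library codes -0.38 (limma adjusted p = 0.0967).

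Idh2 has 1 annotated start in the promoter table, on the minus strand of chromosome 7 (GRCm38.p6), and the 100 bases before it hold a GC box on each strand.
Idh2, chr7:80115351-80115450: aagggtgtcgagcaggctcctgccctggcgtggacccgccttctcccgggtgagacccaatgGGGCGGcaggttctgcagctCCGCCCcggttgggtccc
GGGCGG or CCGCCC is in 35.7% of all 300-base windows and in 57.1% of the 63 windows of members.

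The NAD-dependent isocitrate dehydrogenase is a separate enzyme of 3 kinds of subunit. Its catalytic subunit Idh3a was at 503 ± 54.5 in +/+ and 411 ± 66.3 in KI/+ kidneys (log2 fold change -0.30, 95% interval -0.55 to -0.06, limma adjusted p = 0.195), while both Idh3b and Idh3g were at -0.09. Citrate synthase (Cs), the entry enzyme of the cycle, was at 631 ± 99.95 and 556 ± 65.7 (log2 fold change -0.17, limma adjusted p = 0.539). The 2-oxoglutarate dehydrogenase Ogdh was at 1385 ± 149.7 and 1324 ± 133 (log2 fold change -0.06, limma adjusted p = 0.813), and its partner subunit Dlst was at 0.04.

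Among the succinyl-CoA synthetase subunits, the shared subunit Suclg1 (log2 fold change 0.10) and the ATP-forming Sucla2 (0.08) lay just above 0. The GTP-forming Suclg2 was at 778 ± 118 in +/+ and 665 ± 161 in KI/+ kidneys (log2 fold change -0.25, 95% interval -0.56 to 0.06), with its lowest values in KI/+ 5 (479.7) and KI/+ 3 (511). Fumarase (Fh1) had the widest interval of the members (log2 fold change -0.03, 95% interval -0.43 to 0.36), and its lowest values were 335 in +/+ 3 and 349 in KI/+ 3. The malate dehydrogenases of cytosol and mitochondria, Mdh1 and Mdh2, were at 0.02 and -0.11, and Mdh1 had the highest counts of all members in +/+ kidneys (6960.4 ± 741).

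**Figure D3:**
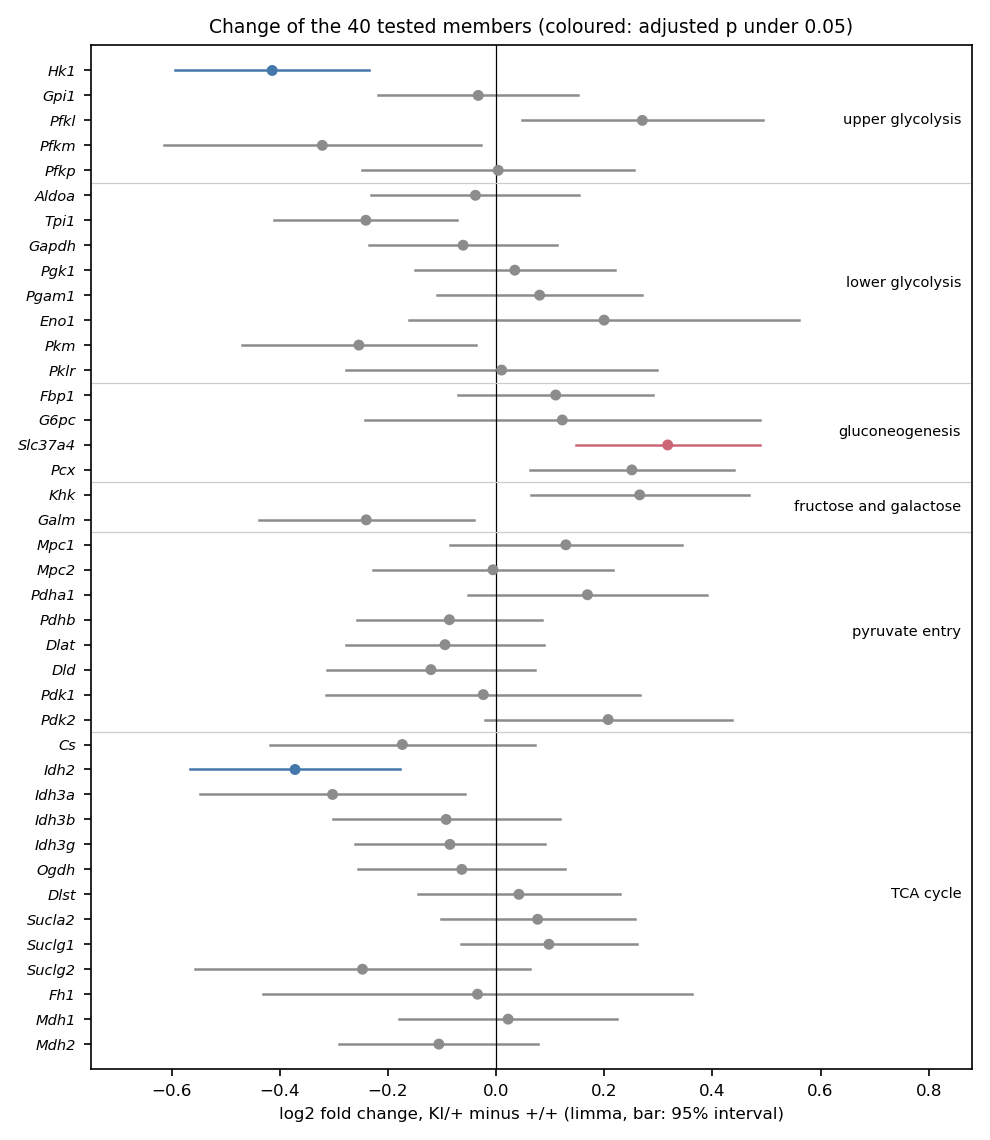
Points give the log2 fold change (KI/+ minus +/+) of the 40 tested members from limma and bars the 95% interval, grouped by step of the pathway; colour marks an adjusted p under 0.05 over all 13197 genes. Hk1 and Idh2 are coloured below 0 and Slc37a4 above it, and the other 37 members lie between -0.32 and 0.27, 8 of them with unadjusted intervals that also exclude 0.

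Of 77 further genes from lists of glycolysis, gluconeogenesis, fructose and galactose, pyruvate dehydrogenase, the TCA cycle and its shuttles, pentose phosphates and glycogen, 76 were tested and 8 passed (10.5%, beside 3.69% of all genes tested), 4 higher and 4 lower. The count was 17 with the library-code run as a covariate and 4 without a trend of variance on expression. Their median log2 fold change was 0.08. By list, 1 of 11 glycolytic, 2 of 8 gluconeogenic, 0 of 10 fructose and galactose, 0 of 5 pyruvate dehydrogenase, 4 of 22 TCA cycle and shuttle, 1 of 8 pentose phosphate and 0 of 12 glycogen genes passed. Hk3, Pfkfb1, Eno2 and Pdk4 are among the listed genes not analysed here.

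The gene of this set with the largest change was Pck1, the cytosolic phosphoenolpyruvate carboxykinase that controls entry into gluconeogenesis. It was at 2666, 2278, 1372, 2017 and 2150.3 normalized counts in +/+ mice and at 7956, 7115, 2344, 4484 and 5448 in KI/+ mice. KI/+ 3, at 2344, lay within the +/+ range, and the other 4 KI/+ mice lay above it. The log2 fold change was 1.30 (SE 0.245, 95% interval 0.78 to 1.81, limma adjusted p = 0.00412, exact permutation p = 0.0159). Pck1 passed without each mouse in turn but not with robust variances (adjusted p = 0.0912) or without a variance trend (adjusted p = 0.0556).

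Fbp2, the muscle isoform of fructose-1,6-bisphosphatase, fell from 94.7 ± 11.3 to 60.0 ± 14.7 (log2 fold change -0.67, limma adjusted p = 0.0258), whereas the member Fbp1 did not pass. This call was lost without +/+ 3, +/+ 4, +/+ 5, KI/+ 1, KI/+ 3 or KI/+ 4, with limma adjusted p up to 0.0759, and also without a variance trend (0.0551). Pgam2, the muscle isoform of phosphoglycerate mutase, fell from 393 ± 57.3 to 240.3 ± 29.5 (log2 fold change -0.71, limma adjusted p = 0.00115) and passed under every setting, whereas the member Pgam1 did not pass.

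Around the TCA cycle, the carrier Slc25a10, which exchanges dicarboxylates such as malate and succinate for phosphate, rose from 583 ± 46.6 to 832 ± 65.6 (log2 fold change 0.51, limma adjusted p = 0.00146). Cytosolic malic enzyme (Me1), a source of NADPH, rose from 1599.5 ± 137 to 1985 ± 123 (log2 fold change 0.31, limma adjusted p = 0.0346). Mitochondrial malic enzyme 3 (Me3) fell from 177 ± 31.6 to 100.2 ± 19.998 (log2 fold change -0.82, limma adjusted p = 0.00403). Got1, the cytosolic aspartate aminotransferase of the malate-aspartate shuttle, fell from 429.8 ± 43.1 to 274 ± 48.3 (log2 fold change -0.66, limma adjusted p = 0.00403). In the pentose phosphate branch, the NADPH-forming 6-phosphogluconate dehydrogenase (Pgd) rose from 324 ± 28.7 to 431 ± 66.6 (log2 fold change 0.41, limma adjusted p = 0.0424). Slc25a10, Me3 and Got1 passed without each mouse in turn. The Me1 call was lost without +/+ 1, +/+ 3, +/+ 4, +/+ 5, KI/+ 1, KI/+ 2 or KI/+ 4 (limma adjusted p up to 0.111), and the Pgd call held only without +/+ 3 or KI/+ 4, with limma adjusted p up to 0.122 otherwise. Of the 13 settings that kept every mouse or took the second run alone, Me1 did not pass in 3 (limma adjusted p up to 0.125) and Pgd in 4 (limma adjusted p up to 0.227). Both were lost with quantile normalization, with scaling to reads outside the mitochondrial genome and without a variance trend, and Pgd also in the second run.

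**Figure D4:**
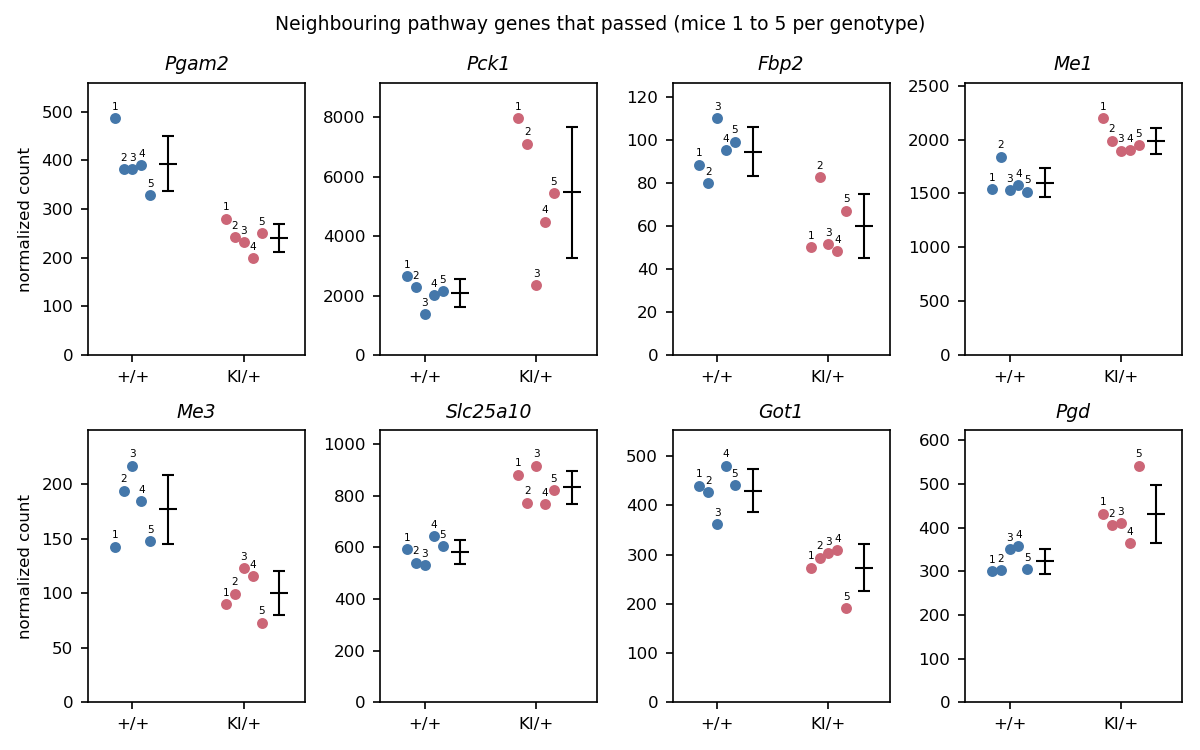
Points are normalized counts of single mice, numbered 1 to 5 within each genotype, for the 8 genes of the neighbouring pathway lists that passed; bars beside them give the mean and SD of 5 mice, and each axis starts at 0. Pck1, Me1, Slc25a10 and Pgd are higher in KI/+ mice and Pgam2, Fbp2, Me3 and Got1 lower, and Pck1 is the most spread, from 2344 to 7956 within KI/+ mice.

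The lactate dehydrogenase subunits Ldha and Ldhb, which link pyruvate to lactate, lay on opposite sides of 0, and neither passed. Ldha was at 3071 ± 412 in +/+ and 3804 ± 466 in KI/+ kidneys (log2 fold change 0.31, limma adjusted p = 0.112) and Ldhb at 4446 ± 341 and 3818 ± 251.6 (log2 fold change -0.22, limma adjusted p = 0.166). Ldha passed with the library-code covariate (0.38, limma adjusted p = 0.000993) and within the second run (0.38, limma adjusted p = 0.0203), and Ldhb with quantile normalization (-0.30, limma adjusted p = 0.00948). Ratios were taken within each mouse for 7 pairs of isozymes, chosen after their values were seen and so given as a description with no test. The log2 ratio of Pfkl over Pfkm was 1.77 to 2.16 in +/+ and 2.37 to 2.89 in KI/+ mice, without overlap. The log2 ratio of Ldha over Ldhb was -0.66 to -0.43 in +/+ and -0.12 to 0.21 in KI/+ mice, also without overlap. Pgam1 over Pgam2 (3.38 to 3.72 against 4.14 to 4.49) and Me1 over Me3 (2.81 to 3.42 against 3.94 to 4.72) did not overlap either, and the values of Pgam2, Me1 and Me3 on their own did not overlap. The ranges overlapped for Pklr over Pkm (-3.93 to -3.38 against -3.70 to -3.05), Fbp1 over Fbp2 (4.91 to 5.84 against 5.66 to 6.46) and Idh2 over Idh3a (2.33 to 2.95 against 2.08 to 3.18).

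Some markers of nephron segments moved with genotype beside these genes, and others did not. Over all genes tested, 3.69% passed and 15.4% had an unadjusted p under 0.05. Of 5 thick ascending limb markers 4 passed, with Umod, Kcnj1 and Egf lower and Cldn16 higher. The sum of the 5 was 29387 to 38821 in +/+ and 12615 to 21685 in KI/+ mice. Most of that sum was Umod, with means of 22917 in +/+ and 11569 in KI/+ kidneys. Slc12a1, the next most abundant, did not pass (means of 6354 and 5540, log2 fold change -0.22, limma adjusted p = 0.438), and its ranges overlapped. Of 4 distal convoluted tubule markers 3 were lower, with sums of 4154 to 4812.5 in +/+ and 2424 to 3280.1 in KI/+ mice. Of 9 markers of the first proximal tubule segments 3 were lower and 1 higher, and of 7 markers of the last proximal segment 0 passed by limma, with 1 at an unadjusted p under 0.05. Of 6 principal cell markers 1 was higher, with sums of 1224 to 1441 in +/+ and 1594 to 2634 in KI/+ mice, and of 6 intercalated cell markers 2 were lower, with sums of 1705.5 to 1813 and 1508 to 1710.6. None of these markers was at 0 in any mouse. Of 5 podocyte markers 1 was higher and of 5 blood markers 1 lower. Of 6 endothelial, 6 fibroblast and 8 leukocyte markers 0 passed by limma, with 1, 2 and 2 at an unadjusted p under 0.05. The part of segment makeup in the changes of Hk1, Idh2, Slc37a4 and the 8 neighbouring genes was not tested.

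RagC acts on TFEB, which binds CACGTG in promoters of lysosomal genes. Promoter windows of 40 members were in the RefSeq table for GRCm38.p6, without Galm and Idh3a. CACGTG was in 8 of 63 windows of members (12.7%) and in 7.15% of all windows, and was found in Khk, Ogdh, Pcx, Pdk2, Pfkfb2 and Pfkm. CACGTG is its own reverse complement, and it contains ACGTG, which was in 38.1% of windows of members and 19.6% of all windows. The stretches of 30 bases around the match are shown for Khk, Pcx and Pfkm, the genes among them whose unadjusted p was under 0.05, all on the plus strand and with CACGTG in capitals.
Khk, chr5:30921476-30921505: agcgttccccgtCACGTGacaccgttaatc
Pcx, chr19:4510222-4510251: ccCACGTGaggctttcaagaaaagagagta
Pfkm, chr15:98092441-98092470: aattaagtatgcCACGTGaagtaagtaatt
Of these genes, Khk and Pcx had log2 fold changes of 0.27 and 0.25 and Pfkm of -0.32, and none passed. None of the 3 members that passed holds CACGTG in its window.

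The settings of the analysis moved the calls of Idh2 and Slc37a4 but not that of Hk1. Hk1 and Idh2 passed with quantile normalization, whereas Slc37a4 did not (limma adjusted p = 0.0656). Without a trend of variance on expression, Idh2 and Slc37a4 each had a limma adjusted p of 0.125. On whole reads recovered from the normalized counts, DESeq2 and edgeR called the same 3 members. With the library-code run as a covariate 5 of 40 members passed (background 6.30%), the same 3 with Khk and Pdha1. Among the 7 mice of the second run alone, Hk1 (log2 fold change -0.44, limma adjusted p = 0.0437) and Slc37a4 passed, 2 of 40 members (background 2.62%). Of the neighbouring genes, Got1, Fbp2 and Pgd did not pass in that run, with limma adjusted p of 0.0556, 0.0756 and 0.227.

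**Figure D5:**
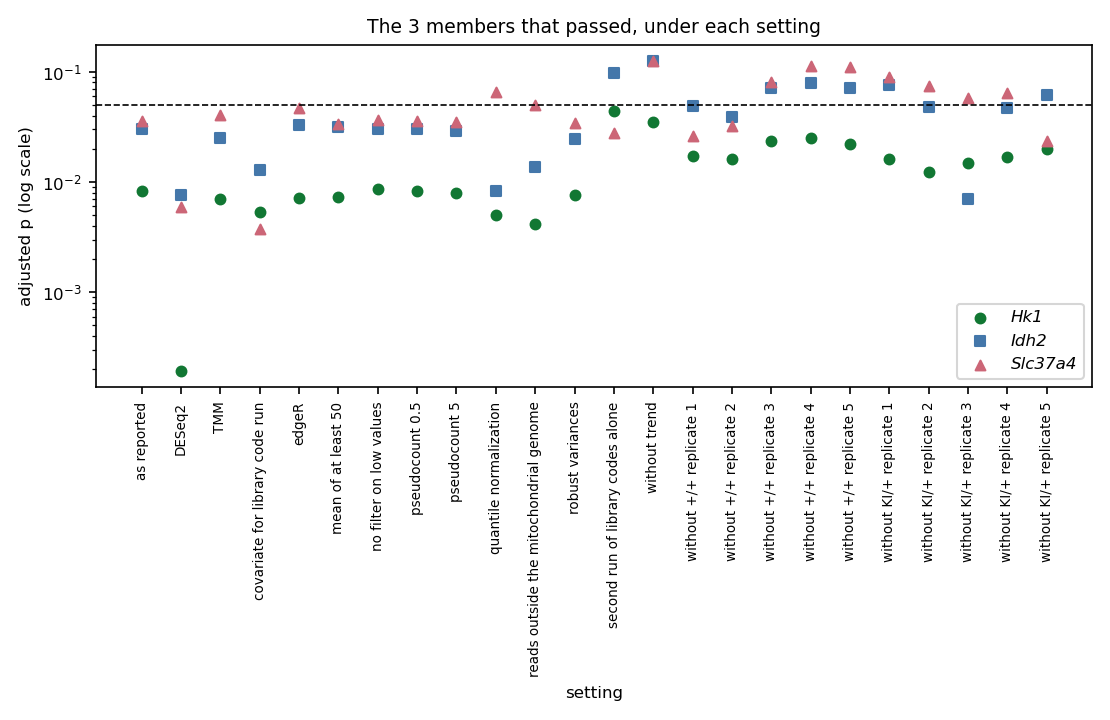
Points give the adjusted p (log scale) of Hk1, Idh2 and Slc37a4 under each setting named on the x axis, and the dashed line marks 0.05. Hk1 is under the line everywhere, at most 0.0437, whereas Idh2 and Slc37a4 cross it without a variance trend and when single mice are left out, reaching 0.125. Slc37a4 also crosses it with quantile normalization (0.0656), and Idh2 in the second run of library codes alone (0.0967).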

How the data were processed

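Total RNA of whole kidneys was made into QuantSeq 3′ libraries. According to the study's methods and the submitters' processing notes, reads were aligned to GRCm39 with TopHat2 2.0.10, allowing multiple hits, and counted by strand with HTSeq 0.6.1 on GENCODE vM26. Per gene and library, the deposited signal is a number of reads that the authors divided by the library's size factor. All 10 columns matched a mouse, and 100% of values gave whole reads (tolerance 0.01 reads).

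Values were tested as log2(value + 1) with limma 3.58.1 (R 4.3.3; lmFit, eBayes with trend, two-sided) in genes with at least 10 normalized counts in at least 5 mice. Adjustment was by Benjamini-Hochberg over 13197 genes, with a threshold of 0.05. Exact permutation tests ran over all splits into 5 and 5 mice (scipy 1.17.1). Recovered reads were tested with edgeR 4.0.16 and DESeq2 1.42.0 as alternatives. The fit was also run on simulated data, whose outcome is not reported here.

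The members, gene lists and markers were chosen with earlier results of these data known. Values of every mouse are given for members that passed or did not overlap between genotypes, and for Pck1 and Hk2. Key enzymes and the member of each group with the largest change are given by group means, as are neighbouring genes that passed, Ldha and Ldhb. A further gene covered by this rule is not reported here. Library codes ended in 38 to 40 (first run) or 53 to 66 (second run), and what the runs stand for is not given in the sources used here. Nothing in the labels says that the mice were littermates or processed in pairs.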

Additional observations from a re-analysis of the deposited data

Results flagged for a closer look

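With 5 mice per genotype, a single mouse stood far from the others, by Dixon's criterion at the 95% level, in 7 of 106 combinations of gene and genotype examined, and chance alone gives about 1 in 20. Among +/+ mice, +/+ 3 had the highest Hk1 (544.3 normalized counts, next 493.9) and +/+ 2 the highest Me1 (1842, next 1574). KI/+ 4 had the lowest Pfkp (250.1, next 298.5). KI/+ 1 had the highest value of 4 genes, namely Fbp1 (4516, next 4238), Khk (3150, next 2542), Ogdh (1556, next 1305) and Ldha (4607, next 3796). Without +/+ 3, the log2 fold change of Hk1 was -0.38 (limma adjusted p = 0.0233).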

How the results depend on the processing

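The 23 alternatives changed the pseudocount, the filter, the normalization, the variance model, the tool, the treatment of library-code runs, or left out 1 mouse. With a covariate for the run, 832 genes, 3 members higher and 17 neighbouring genes passed. Without a variance trend these were 291, 0 and 4, with 1 member lower. Quantile normalization left 0 members higher, and the second run alone 1 lower. Leaving out each mouse gave 295 to 466 genes (310 without +/+ 4 and 295 without +/+ 5), 0 to 1 members higher, 1 to 2 lower and 5 to 9 neighbouring genes, of which 5 each without +/+ 4, +/+ 5 or KI/+ 1. The median of each member group shifted by less than the spread between mice. Among the members followed through every setting, signs turned for 4, Pfkp, Pklr, Pdk1 and G6pc (0.12 as reported). Of the others, Mpc2 and Fh1 turned from -0.01 and -0.03 to 0.11 and 0.07 in the second run alone and to 0.050 and 0.036 with the covariate for the run. Pfkp was -0.014 with DESeq2, -0.019 with edgeR, -0.0007 with TMM, -0.0028 with quantile normalization and -0.039 when scaled to reads outside the mitochondrial genome, a scaling that moved the median of all genes by -0.042, and ranged from -0.078 to 0.082 as mice were left out. Pklr was -0.032 under that scaling and -0.055 to 0.075 as mice were left out. In the second run alone G6pc was -0.087 and Pdk1 0.0046, and as mice were left out they ranged from -0.072 to 0.24 and from -0.13 to 0.057. The cause was not tested. Over named genes, 634 of the other values kept direction and side of the threshold, 49 lost the call and 7 gained it. No paired analysis was possible because the labels give no replicate numbers that tie mice across genotypes. Depth limits Hk2 and Pfkfb2, which were too low to test.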
